A study of Arabidopsis thaliana with 20 samples.

Results

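The endodermis of the Arabidopsis thaliana root tip was set against the whole root tip after 2 h of oxygen shortage. The comparison took the ribosome-bound RNA of the pSCR line in hypoxia (2 arrays) minus that of the p35S line in hypoxia (2 arrays), chosen by their titles, which is 4 of the 20 arrays of the study. All lines were in the Col-0 background and expressed RPL18B, a protein of the large ribosomal subunit, with a His6 and a FLAG tag: p35S:His6FLAG-RPL18B, pSCR:His6FLAG-RPL18B, and for the vascular lines pSHR and pWOL the same tagged protein behind those promoters. Tagged ribosomes were pulled from root tip lysates with anti-FLAG beads, and the RNA that came with them was put on the array, so a line reports what sits on ribosomes where its promoter works. The labels describe the pSCR samples as endodermis. The viral p35S promoter is active in most cell types, the endodermis included, so the p35S arrays hold a share of the same cells. Seedlings were 7 days old, and plates were flushed with argon for 2 h (hypoxia) or stayed in air (control) before the last 1 cm of the root was cut. Other arrays read beside the main 4 were mainly pSCR and p35S in air, pSHR and pWOL in hypoxia, and total RNA in hypoxia. Total RNA came from the lysate of the p35S line, and each group had 2 arrays. All 20 arrays, also total RNA, pSHR and pWOL in air, entered the fit that gave the standard errors and p-values. The sources used here do not give whether a line is a single transformant or whether the arrays of a group came from separate cultures. The p-values therefore measure the spread between arrays, which may be technical.

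The endodermis is the innermost layer of the cortex and surrounds the vascular cylinder. Its cells build the Casparian strip, a lignin band in the wall that blocks diffusion between cells, and later a suberin layer. The band is placed and closed by a surveillance pathway in which small peptides made in the vascular cylinder diffuse outwards and meet a receptor kinase on the endodermis, while peroxidases and dirigent proteins polymerise the lignin locally. Root tips are prone to oxygen shortage, and plant cells answer it with a set of transcripts for fermentation, for regulators and for proteins of unknown role that ERF transcription factors switch on.

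Values are log2 expression per probe set, so a difference of 1 is a 2-fold change. Array medians ran from 6.41 to 6.55 and arrays of a group correlated at 0.965 to 0.984 over probe sets. Each amplification started from 400 pg of RNA and took 2 rounds. The 3 prime GAPDH control probe set exceeded the 5 prime one on every array, by 3.16 to 5.11 log2 units. The excess was 4.08 and 3.62 on the p35S hypoxia arrays and 4.27 and 5.11 on the pSCR hypoxia arrays. In hypoxia it was 4.79 and 4.14 in total RNA, 4.58 and 4.72 in pSHR, and 4.39 and 4.45 in pWOL. Its cause was not tested. The 25S ribosomal RNA control read 10.18 on pSCR hypoxia replicate 2, against 12.69 to 14.34 on all other arrays. The part of these readings in the results was not tested. Fewer cells of a type, less RNA per cell and fewer ribosomes on a transcript cannot be told apart in such pools.

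In hypoxia the pSCR arrays differed from the p35S arrays at 1006 of 22746 probe sets (4.42%), by limma's moderated test with Benjamini-Hochberg adjustment at 0.05. Of these, 324 (1.42%) were higher and 682 (3.00%) lower in pSCR. Those with a single listed gene numbered 537 of 13513 (3.97%), 162 higher (1.20%) and 375 lower (2.78%). The median difference over all probe sets was 0.00363 log2 units, and the arrays of the 2 lines did not overlap at 45.8% of them. Each array carried weight: 498 probe sets passed without p35S replicate 1, 576 without p35S replicate 2, 397 without pSCR replicate 1 and 255 without pSCR replicate 2. With the 4 arrays fitted alone, which leaves 2 residual degrees of freedom, 1 probe set passed.

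The label was checked first, against genes of endodermis identity and the Casparian strip. Of 34 listed genes, 12 had a named probe set, and 10 of these 12 lay above 0 in pSCR minus p35S. The median was 1.08 log2 units. Of the 12, 1 gene passed as higher and 1 as lower, beside 1.20% and 2.78% of all single-gene probe sets. The other 22 listed genes, SCR among them, were not analysed here. The mean level of the 12 genes was 8.46 and 7.91 on the p35S arrays and 8.64 and 9.16 on the pSCR arrays. In air, where 9.94% of all probe sets differed between the lines, 8 of the 12 were higher and 1 lower, with a median of 2.00.

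GSO1 is the receptor kinase that guards the closure of the Casparian strip. Its level was 9.26 and 10.20 on the pSCR arrays and 8.54 and 8.40 on the p35S arrays, a difference of 1.26 ± 0.33 (SE, n = 2 per line) with an adjusted p of 0.0471. Both pSCR arrays lay above both p35S arrays. The call was lost without p35S replicate 1, p35S replicate 2 or pSCR replicate 2 (0.79 without the last). In air the difference of GSO1 was 2.32.

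CIF2 encodes a peptide that GSO1 perceives and that is known to be made in the stele. It read 6.68 and 7.12 in pSCR against 8.77 and 9.57 in p35S, a difference of -2.27 ± 0.36 (adjusted p = 0.00465), which is 4.82-fold lower. The 2 lines did not overlap, the call held without each of the 4 arrays in turn, and the difference in air was -1.90. The vascular lines, set against the same p35S arrays, lay on the same sides, at 1.18 (pSHR) and 1.15 (pWOL) for GSO1 and at -1.73 and -1.53 for CIF2 (not tested). Against the mean of the vascular lines GSO1 in pSCR was at 0.10 and CIF2 at -0.64, and neither passed.

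None of the other 10 genes passed in hypoxia. SGN1, a cytoplasmic kinase that acts after GSO1, differed by 0.83, with 12.41 and 12.02 in pSCR and 12.09 and 10.68 in p35S, so the lines overlapped. JKD, a zinc finger protein that acts with SCR and SHR, differed by 1.26. The dirigent genes DIR9 and DIR18 differed by 1.08 and 1.09, and EN7, an endodermis reporter gene, by 0.79. The peroxidase genes PER9, PER39 and PER72 differed by 1.87, 1.47 and 1.33. PER9 illustrates the spread: 7.96 and 9.04 in pSCR against 7.73 and 5.54 in p35S. SCL23, a GRAS regulator close to SCR, differed by -0.10 and LOTR1, which positions the strip, by 0.03.

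**Figure D1:**
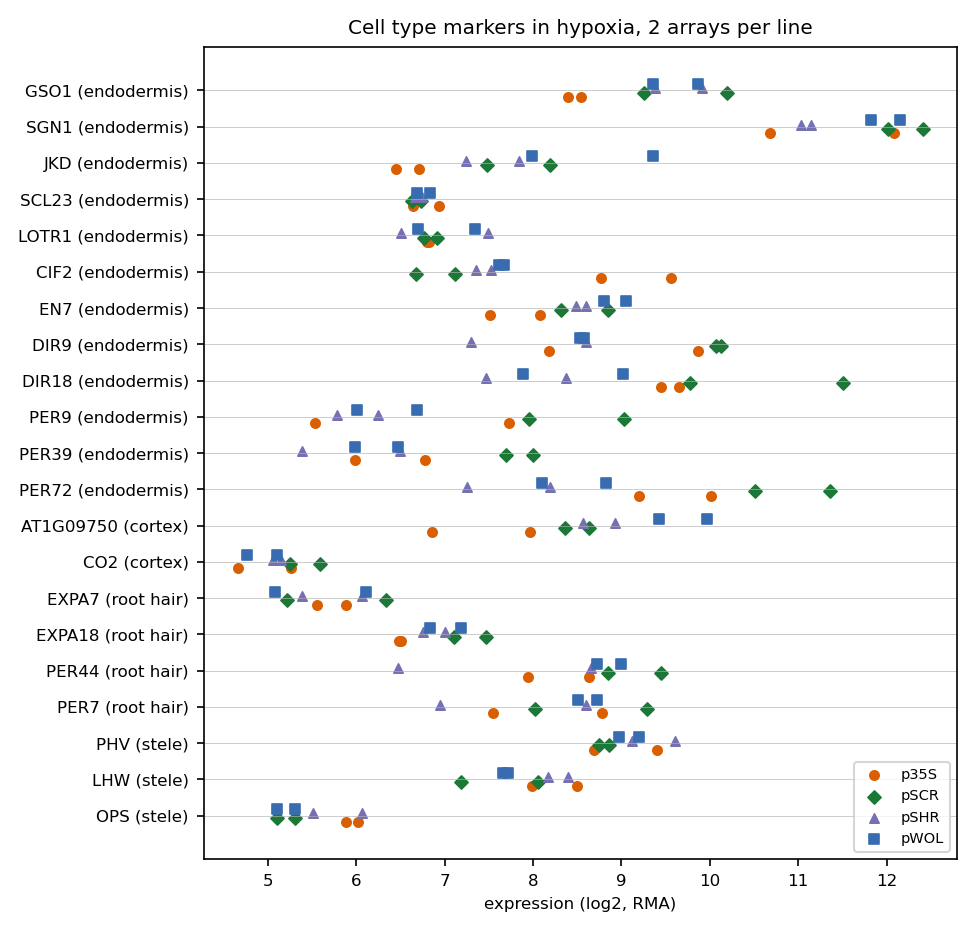
Level (log2) of the measured marker genes on each hypoxia array, with 2 arrays per line for p35S, pSCR, pSHR and pWOL. GSO1 lies higher in pSCR than in p35S (9.26 and 10.20 against 8.54 and 8.40), CIF2 lower, and PER72 lies higher in pSCR than in pSHR and pWOL.

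Markers of other cell types were few and none passed in hypoxia. The cortex list had 2 of 3 genes measured, AT1G09750 at 1.09 and CO2 at 0.46 in pSCR minus p35S. The root hair list had 4 of 20, with EXPA7 at 0.06, PER7 at 0.49, EXPA18 at 0.79 and PER44 at 0.86. The stele list had 3 of 29, with PHV at -0.24, LHW at -0.62 and OPS at -0.74. All 3 stele genes lay below 0 and all 6 cortex and root hair genes above it. The arrays of the 2 lines overlapped for PHV, LHW, CO2, EXPA7 and PER7, so the signs of these genes carry little weight. CO2 was also weak, at 5.59 and 5.25 in pSCR and 5.26 and 4.66 in p35S, below the array medians. The vascular lines were set against the same p35S arrays too (not tested, pSHR then pWOL). The stele genes lay at 0.32 and 0.05 (PHV), 0.03 and -0.55 (LHW) and -0.16 and -0.74 (OPS). The cortex genes lay at 1.34 and 2.29 (AT1G09750) and 0.14 and -0.02 (CO2). The root hair genes lay at 0.01 and -0.12 (EXPA7), -0.39 and 0.46 (PER7), 0.38 and 0.51 (EXPA18) and -0.72 and 0.57 (PER44). The mean level of the 3 stele genes was 7.76 and 7.74 on the p35S arrays and 7.41 and 7.02 on the pSCR arrays; of the 4 root hair genes it was 7.45 and 6.89 against 8.14 and 7.30. The part of other cells in the differences was not tested.

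Among the 15 single-gene probe sets with the largest higher calls and no overlap between the lines, 4 encode receptor kinases with leucine-rich repeats. The differences of the 15 ran from 1.73 to 2.34 log2 units, or 3.33-fold to 5.05-fold. Of these 15 calls, 3 held without each of the 4 arrays in turn: TBL30, AT2G28970 and AT1G51890.

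TBL30 belongs to the family of enzymes that acetylate wall polysaccharides. It read 9.12 and 9.25 in pSCR and 6.91 and 7.14 in p35S, a difference of 2.17 ± 0.29 (adjusted p = 0.00157). Its difference in the parallel air controls was 2.15. In hypoxia it was 7.38 on average in pSHR and 7.56 in pWOL.

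AT5G59680 encodes a receptor kinase with leucine-rich repeats. It had the largest difference, 2.34 ± 0.43 (adjusted p = 0.0100), from 9.85 and 9.64 in pSCR and 6.81 and 8.01 in p35S. The p35S arrays were far apart but stayed below both pSCR arrays. This call was lost without p35S replicate 1 and without either pSCR array.

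The other 3 of these kinases read as follows. AT2G28970 read 8.06 and 7.74 against 5.60 and 6.17, a difference of 2.01 ± 0.28. AT1G51890 read 7.66 and 7.65 against 5.88 and 5.82, a difference of 1.80 ± 0.25 (adjusted p = 0.00211 for both). AT2G28960 differed by 1.91 ± 0.47 from low levels, 6.41 and 6.59 against 4.37 and 4.82. A lectin-type receptor kinase, AT4G27290, differed by 2.01 ± 0.49.

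XTH16, an enzyme that cuts and rejoins xyloglucan in the wall, read 7.38 and 7.54 in pSCR and 5.55 and 5.91 in p35S, a difference of 1.73 ± 0.30 (adjusted p = 0.00747). Its difference in air was 2.76. AT2G22620, of the rhamnogalacturonate lyase family that acts on pectin, differed by 1.81 ± 0.43, and AT1G73620, of the thaumatin family, by 2.26 ± 0.55. The calls of AT2G22620 and AT1G73620 were lost without any 1 of the 4 arrays, and that of XTH16 without p35S replicate 1 or pSCR replicate 2.

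A pair of metabolic enzymes was in the group. GPDHp, a plastid glycerol-3-phosphate dehydrogenase that feeds lipid synthesis, read 9.48 and 9.90 in pSCR and 7.37 and 8.40 in p35S, a difference of 1.80 ± 0.32 (adjusted p = 0.00856). In air it differed by 0.14, and the change of the difference did not pass (adjusted p = 0.232). SDH1-2, a flavoprotein subunit of mitochondrial succinate dehydrogenase, differed by 1.76 ± 0.43 in hypoxia and by 0.72 in air. The remaining 4 of the 15 were AT5G54040 (1.84), the DEAH-box helicase gene AT2G35920 (1.81) and the U-box genes AT2G45920 (1.80) and AT3G61390 (1.74).

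**Figure D2:**
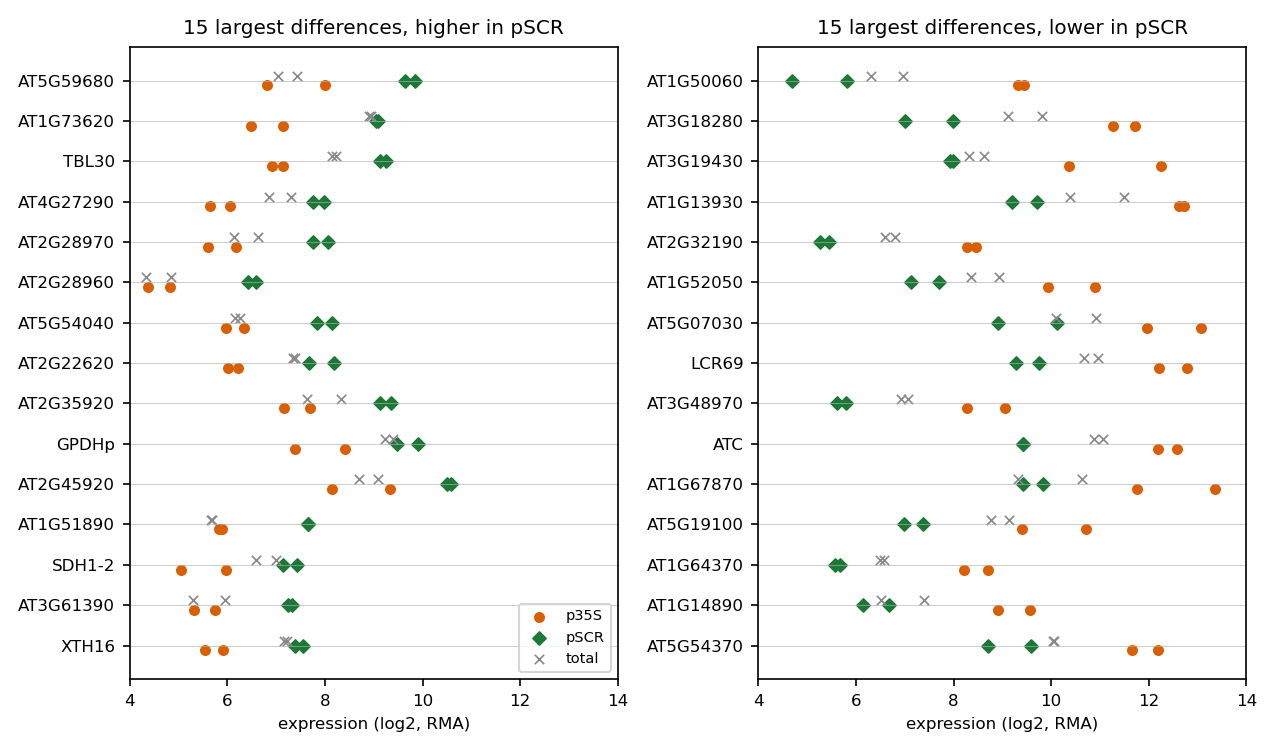
Level (log2) on each hypoxia array of the 15 genes with the largest higher and the 15 with the largest lower calls in pSCR against p35S, with total RNA as crosses. For AT1G50060 the pSCR arrays read 5.82 and 4.69 and the p35S arrays 9.45 and 9.32; the genes were chosen for such gaps.

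Differences towards lower levels were larger. The 15 leading genes were 2.78 to 4.13 log2 units lower in pSCR, or 6.88-fold to 17.5-fold. Of these 15 calls, 11 held without each of the 4 arrays in turn. All 15 lay below 0 in air too, between -3.46 and -0.26, and 13 passed there.

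AT1G50060, of the family of pathogenesis-related protein 1, had the largest. It read 5.82 and 4.69 in pSCR against 9.45 and 9.32 in p35S, a difference of -4.13 ± 0.61 (adjusted p = 0.00297). In pSHR (5.14) and pWOL (4.61) its mean was near that of pSCR, and it was 6.64 in total RNA. The p35S arrays thus stood above every other population.

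AT3G18280, a lipid transfer protein, read 8.00 and 7.00 against 11.71 and 11.26, a difference of -3.99 ± 0.51. Its means in pSHR and pWOL were 10.19 and 9.36, between the other lines. ATC, a relative of the flowering repressor TERMINAL FLOWER 1, read 9.42 and 9.43 against 12.58 and 12.19, a difference of -2.96 ± 0.30 with an adjusted p of 4.12e-04. Its 2 pSCR arrays were almost equal.

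LCR69 (also PDF2.2), a plant defensin, read 9.28 and 9.74 against 12.78 and 12.21, a difference of -2.99 ± 0.38. The aspartyl protease genes AT5G07030 and AT5G19100 differed by -3.00 ± 0.39 and -2.88 ± 0.38. AT1G14890, a pectin methylesterase inhibitor, differed by -2.83 ± 0.38, and the jacalin lectin gene AT1G52050 by -3.00 ± 0.56.

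AT2G32190, a small cysteine-rich membrane protein of a family linked to stress, stood apart in its air value. In hypoxia it read 5.26 and 5.44 in pSCR and 8.27 and 8.46 in p35S, a difference of -3.02 ± 0.36 (adjusted p = 9.72e-04). In air the difference was -0.26, but the change between treatments did not pass (-2.76, adjusted p = 0.118). Its means in hypoxia were 5.07 in pSHR and 5.13 in pWOL, and 6.69 in total RNA, all below the 2 p35S arrays. The remaining genes of the 15 were AT3G19430 (-3.35), AT1G13930 (-3.23), AT3G48970 (-2.97), AT1G67870 (-2.92), AT1G64370 (-2.84) and AT5G54370 (-2.78).

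Gene families were then counted, matched by symbol, beside the 1.20% of single-gene probe sets called higher and the 2.78% called lower in hypoxia (3.59% and 4.85% in air, 8.44% together). Members without a named probe set were not measured, so the counts do not stand for whole families. Measured were 12 of 44 glutathione transferases, 10 of 86 plant defensins, 18 of 35 expansins and 43 of 49 glycosyltransferases. Glutathione transferases, which join glutathione to reactive compounds, had 3 of 12 measured members lower and 0 higher. The median over all 12 was -0.28. GSTF4 read 5.03 and 5.11 against 7.24 and 7.26 (-2.18 ± 0.25). GSTU23 differed by -1.87 ± 0.26 and GSTU25 by -1.77 ± 0.27, and all 3 calls held without each of the 4 arrays in turn. In air GSTU23 differed by -3.22, and GSTU25 by -0.91, which did not pass.

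Plant defensins had 2 of 10 members lower, LCR69 and LCR68. LCR68 read 10.96 and 11.37 against 13.09 and 12.75, a difference of -1.75 ± 0.25, and lies next to PDF2.1 (-1.58 ± 0.26), which the symbol match had missed. Expansins, which loosen walls, had 1 of 18 lower, EXPB3 (-1.63 ± 0.34; -3.04 in air). That call was lost without p35S replicate 1 or either pSCR array. Of 43 glycosyltransferases 1 was higher, UGT71C2 (0.73 ± 0.17), and of 3 jacalin lectins matched by symbol 1 was higher, JAL22 (1.04 ± 0.25); each of these 2 calls was lost without any 1 of the 4 arrays. The symbol match missed the jacalin lectin genes AT1G52050, AT1G52060 and AT1G52070, which were lower (-3.00, -2.25 and -2.28), so the count of 1 higher does not stand for the family. Few cytochrome P450s (18 of 226) and WRKY factors (7 of 72) were measured, and 12 of 35 transporters of the NPF and related families. Among these measured members 0 were called in either direction.

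The remaining families were picked after their values had been seen. Their counts and the values of their members are description only. Measured were 10 of 33 xyloglucan endotransglucosylases and 15 of 17 tetraspanins. Xyloglucan endotransglucosylases had 2 of 10 members higher, XTH16 and XTH21 (1.29 ± 0.34), and 1 lower. That 1 is XTH20, at 5.34 and 4.93 in pSCR against 7.59 and 8.08 in p35S (-2.70 ± 0.33). Without p35S replicate 1 or pSCR replicate 2 the higher count was 0, and without p35S replicate 2 or pSCR replicate 1 it was 1; XTH21 was lost without any 1 of the 4 arrays, while XTH20 kept its call. Tetraspanins, membrane proteins that build microdomains, had 3 of 15 lower: TET2 (-1.60), TET6 (-1.57) and TET5 (-1.50). The count of lower tetraspanins was 0 without p35S replicate 1 or pSCR replicate 2, 1 without pSCR replicate 1 and 2 without p35S replicate 2.

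Receptor kinases with a malectin-like domain and leucine-rich repeats had 8 of 32 measured members higher and 0 lower, with a median of 0.15 over the 32. Beyond the 4 given above these were AT1G51860 (1.65 ± 0.38), AT2G28990 (1.38 ± 0.29), AT1G51850 (1.15 ± 0.29) and AT1G07560 (0.97 ± 0.24). The count fell to 2 without p35S replicate 1, 5 without p35S replicate 2, 2 without pSCR replicate 1 and 4 without pSCR replicate 2. In air 7 of the 32 were higher and 0 lower. AT2G28960, AT2G28970 and AT2G28990 lie side by side in the TAIR10.1 gene table, as do AT1G51850 and AT1G51860. Such relatives are similar in sequence and may share hybridisation, so their values are not independent.

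Runs of neighbouring called genes also occurred on the lower side. The jacalin lectin genes AT1G52050, AT1G52060 and AT1G52070 differed by -3.00, -2.25 and -2.28. AT1G52060 read 8.89 and 9.65 in pSCR against 11.73 and 11.31 in p35S, and AT1G52070 9.56 and 9.12 against 11.92 and 11.30. In air the differences of these 2 were -3.33 and -3.14. Of the run AT5G19090, AT5G19100 and AT5G19110 (-2.28, -2.88 and -1.71), the last 2 encode aspartyl proteases. In all, 17 runs of neighbouring called genes were found, 3 of them higher in pSCR, among 159 higher and 374 lower genes. How many runs genes spread at random would give was not computed, so the count does not show clustering. Near-identical copies could share probes here as well.

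Class III peroxidases, which oxidise phenolic compounds in the wall, were followed as a whole family by locus. Of 55 measured members 0 were higher and 3 lower in pSCR, with a median of 0.07. PER61 (AT5G24070) read 5.93 and 5.75 against 7.64 and 7.49, a difference of -1.72 ± 0.24. PER47 (AT4G33420) read 9.99 and 9.56 against 11.59 and 11.22 (-1.63 ± 0.22). PER42 (AT4G21960) read 12.05 and 11.30 against 13.17 and 12.52 (-1.17 ± 0.30), and its call was lost without p35S replicate 1 or pSCR replicate 2. In air, 8 members were higher and 8 lower.

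The low-oxygen response genes were present at high levels in both lines. Part of the literature behind this list used these samples, so it is not independent evidence. Of 50 genes 24 were measured. In pSCR 1 was higher and 3 lower (16.7% together), beside 1.20% and 2.78% of all single-gene probe sets. The median was -0.45, with 19 of 24 below 0. The mean level of the 24 was 11.12 and 11.37 on the p35S arrays and 10.64 and 10.78 on the pSCR arrays. In air the median was -0.27, with 0 higher and 3 lower, beside 3.59% and 4.85% of all single-gene probe sets. Against the mean of the vascular lines the pSCR median in hypoxia had the other sign, 0.37, with 20 of 24 above 0. There 1 passed as higher and 0 as lower, beside 0.104% and 0.170% of all single-gene probe sets.

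Members with a known role were mostly not called. PDC2, a pyruvate decarboxylase of ethanol fermentation, read 13.05 and 12.61 in pSCR and 13.72 and 13.09 in p35S (-0.57 ± 0.31). LDH1, lactate dehydrogenase, differed by -0.60 ± 0.23, and HRA1, a trihelix factor that restrains the response, by 0.34 ± 0.31. CML38, a calmodulin-like calcium sensor, differed by -0.85 ± 0.51 and HRU1, a universal stress protein, by -0.48 ± 0.47. AT5G10040 (0.17) and AT1G33055 (-0.15) lay near 0. A p above the threshold does not show that the lines were alike.

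AT1G72940, a TIR-domain protein of the disease resistance type, was the 1 gene of the list that was higher. It read 8.74 and 9.04 in pSCR and 7.27 and 7.61 in p35S, a difference of 1.45 ± 0.20 (adjusted p = 0.00185), or 2.73-fold. In air its level was 4.95 in pSCR and 5.29 in p35S on average. From air to hypoxia it gained 3.94 in pSCR and 2.16 in p35S, and the change of the difference, 1.78, did not pass (adjusted p = 0.0546). The call in hypoxia held without each of the 4 arrays in turn.

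AT2G17850, a rhodanese-domain protein, was lower, at 8.44 and 8.08 against 9.81 and 10.75 (-2.02 ± 0.34, adjusted p = 0.00672). AT1G19530, of unknown function, read 9.20 and 9.62 against 10.94 and 11.80 (-1.96 ± 0.34, adjusted p = 0.00764). In air they differed by 0.17 and -0.11. AT2G17850 gained 3.02 from air to hypoxia in pSCR and 5.21 in p35S, and AT1G19530 gained 4.52 and 6.36. The changes of the difference did not pass (adjusted p = 0.156 and 0.215). AT4G39675 differed by -1.89 ± 0.49 (adjusted p = 0.0480), and that call was lost without any 1 of the 4 arrays. The vascular lines lay below the same p35S arrays for these 3 genes too (not tested), at -2.55 (pSHR) and -2.50 (pWOL) for AT2G17850, -2.07 and -2.46 for AT1G19530, and -2.90 and -2.95 for AT4G39675. The call of AT2G17850 was lost without pSCR replicate 2, and that of AT1G19530 without p35S replicate 2 or pSCR replicate 1.

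**Figure D3:**
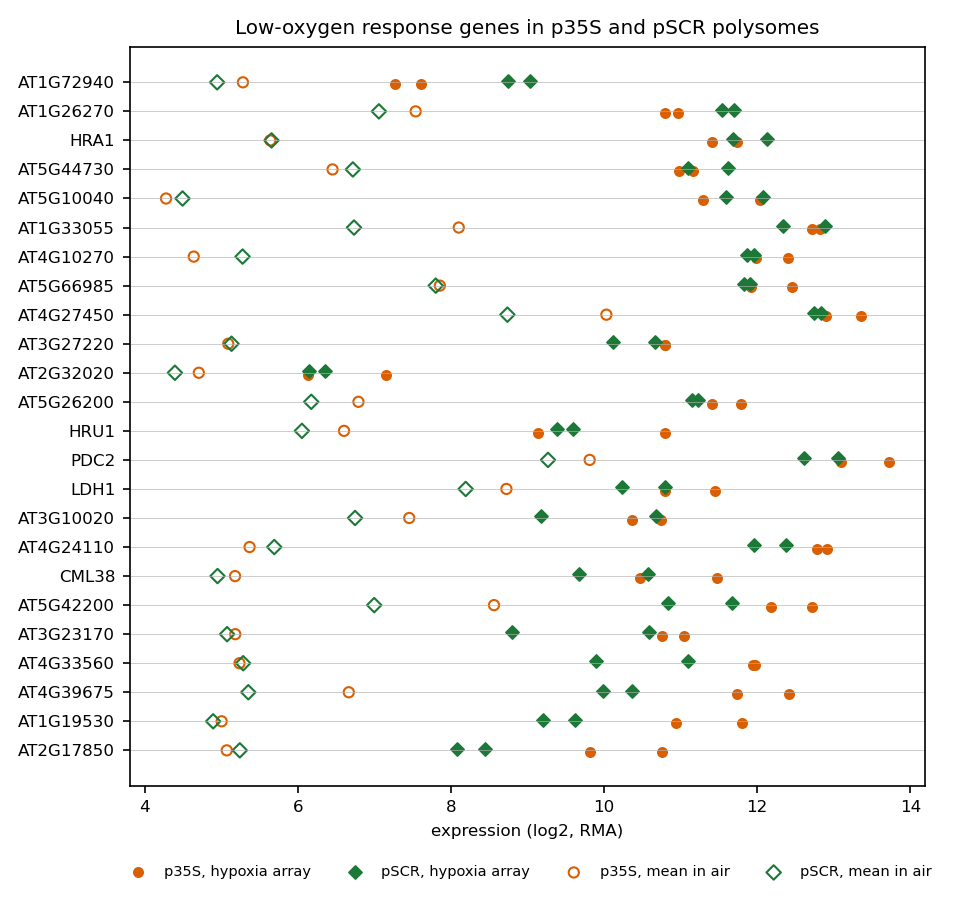
Level (log2) of the 24 measured low-oxygen response genes in p35S and pSCR, with filled symbols for each hypoxia array and open symbols for the mean in air, ordered by the hypoxia difference. AT1G72940 stands at the top (1.45) and AT2G17850 at the bottom (-2.02), and all 24 genes lie higher in hypoxia than in air in both lines.

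How far the differences were already there in air was asked with arrays that the hypoxia comparison does not use. Of the 324 probe sets higher in hypoxia, 135 were also higher in air, which is 41.7% of the hypoxia list and 13.4% of the 1005 higher in air (4.42% of all probe sets). Of the 682 lower in hypoxia, 373 were also lower in air, 54.7% of that list and 29.7% of the 1257 lower in air (5.53%). Same-sign differences in air were seen for 269 of the 324 and 641 of the 682. Of all probe sets, 49.4% lay on the higher side in air and 50.6% on the lower. The median of the 324 was 1.17 in hypoxia and 0.71 in air, and that of the 682 was -1.45 and -1.04. Both sets were chosen by the hypoxia comparison, which favours large values there. The medians therefore do not show that the differences grew in hypoxia. Over all 22746 probe sets the 2 differences correlated at r = 0.579 (rho = 0.464), a description across probe sets that share arrays and are not independent. The air count also leaned on single arrays: 750 without p35S control replicate 1, 1272 without p35S control replicate 2, 756 without pSCR control replicate 1 and 1532 without pSCR control replicate 2, against 2262 with all.

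**Figure D4:**
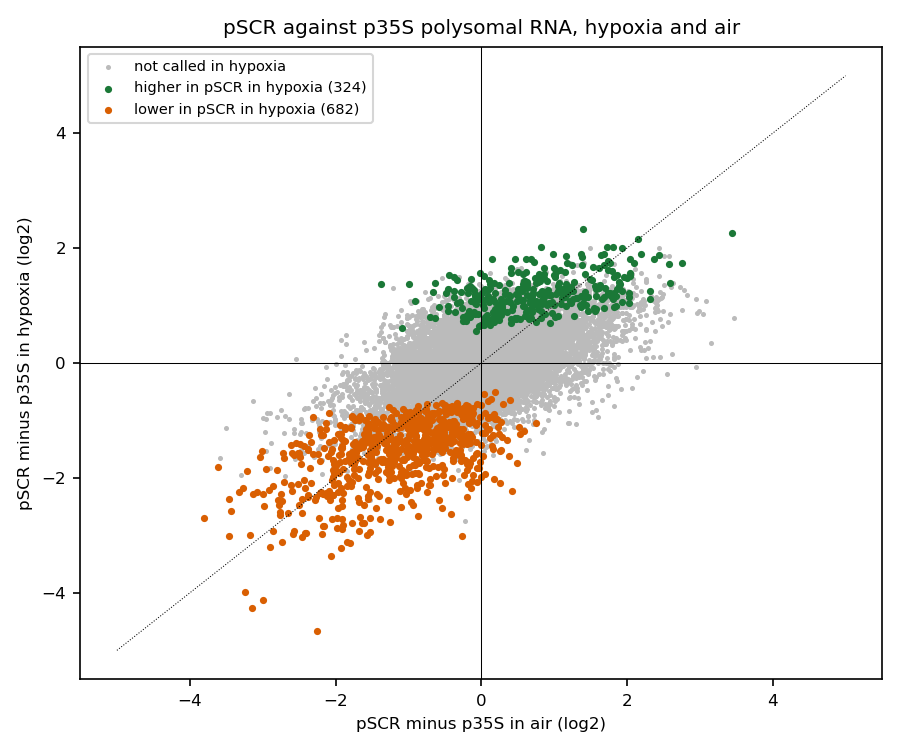
Difference of pSCR minus p35S (log2) in hypoxia on the vertical axis against that in air on the horizontal axis, 1 point per probe set for 22746 probe sets, with the 324 higher and 682 lower in hypoxia coloured and a dotted line of equality. The correlation over all points was r = 0.579. The coloured points were chosen by their hypoxia difference, the vertical axis. The median of the higher points was 1.17 in hypoxia and 0.71 in air, and that of the lower points -1.45 and -1.04. Of the 324 higher points 269, and of the 682 lower points 641, have the same sign in air.

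A difference between the lines that itself changed from air to hypoxia passed at 6 probe sets (0.0264%), 3 towards pSCR and 3 away from it (0.0132% each), and 2264 had an unadjusted p below 0.05. Of the 185 probe sets higher in hypoxia but not called in air, 1 was among the 6, as was 1 of the 309 lower ones. For the others, a call in hypoxia and none in air does not show that the difference changed. The standard error of this test is larger than that of the hypoxia difference (median 0.37 against 0.26).

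Called with opposite signs were 4 probe sets, all higher in hypoxia and lower in air. AT1G09900 was the single one with a listed gene. It read 6.70 and 6.51 in pSCR and 5.99 and 5.61 in p35S in hypoxia (0.80 ± 0.18), and 5.74 and 6.11 against 6.77 and 6.50 in air (-0.71 ± 0.18). Its change of the difference, 1.51, had an adjusted p of 0.0546.

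Whether pSCR also differed from the vascular lines was asked against the mean of pSHR and pWOL in hypoxia. This comparison shares the pSCR arrays with the main one, so the values are given side by side only. It called 54 probe sets (0.237%), 16 higher (0.0703%) and 38 lower (0.167%), with 37 single-gene probe sets among them (0.274%, of which 0.104% higher and 0.170% lower), and 2343 had an unadjusted p below 0.05. The count was 2 without pSCR replicate 2, 83 without pSCR replicate 1, 564 without pSHR replicate 1, 4 without pSHR replicate 2, 6 without pWOL replicate 1 and 17 without pWOL replicate 2. No higher call was left without pSCR replicate 2, pSHR replicate 2 or pWOL replicate 1.

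PER72, a peroxidase of the endodermis list, had the largest higher difference. It read 10.51 and 11.36 in pSCR, 8.19 and 7.25 in pSHR and 8.11 and 8.83 in pWOL, a difference of 2.84 ± 0.52 (adjusted p = 0.0491). All 4 vascular arrays lay below both pSCR arrays, while p35S was between them with a mean of 9.60. It was the 1 gene of the endodermis list called here, and 7 of the 12 lay above 0. DIR18 (2.45, adjusted p = 0.0523), PER9 (2.32), DIR9 (1.85) and PER39 (1.76) did not pass. SGN1 was at 0.67 and GSO1 at 0.10. The 5 genes below 0 were CIF2 (-0.64), JKD (-0.27), LOTR1 (-0.17), EN7 (-0.15) and SCL23 (-0.05).

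A dirigent gene, an esterase gene and 2 further peroxidase genes were also higher in pSCR than in the vascular lines. AT2G21100, a dirigent protein, read 9.90 and 10.88 in pSCR, 8.28 and 6.61 in pSHR and 7.36 and 8.46 in pWOL (2.71 ± 0.48). AT1G74460, a GDSL esterase, read 10.87 and 11.11 against 8.79 and 8.58 in pSHR and 8.81 and 9.43 in pWOL (2.09 ± 0.31). The peroxidases PER11 (AT1G68850, 1.65 ± 0.29) and PER38 (AT4G08780, 1.18 ± 0.19) were higher as well. Thus 3 of the 55 peroxidases were higher and 0 lower, beside 0.104% and 0.170% of all single-gene probe sets. Of the 55, 37 lay above 0 and 18 below, among them PER12 (-1.51) and PER10 (-0.90), which did not pass. Against p35S, AT2G21100, AT1G74460, PER11 and PER38 differed by 0.97, 0.82, 0.97 and 0.63, and none passed.

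Most of the leading genes did not pass here: 3 of the 15 leading higher genes and 1 of the 15 leading lower genes did. The median against the vascular lines was 0.30 for the 324 probe sets higher than in p35S and -0.35 for the 682 lower ones. AT2G28970, for example, had means of 7.17 in pSHR and 7.90 in pWOL, and pSCR differed from the vascular mean by 0.36. Of those that passed in both, TBL30 differed by 1.72 ± 0.25 from the vascular mean (adjusted p = 0.0230) and by 2.17 from p35S. XTH16 differed by 1.61 ± 0.26 and 1.73, AT5G59680 by 2.17 ± 0.37 and 2.34, and AT1G72940 by 1.07 ± 0.17 and 1.45. On the lower side AT5G07030 differed by -1.85 ± 0.34 and -3.00, and MGL, which breaks down methionine, by -1.52 ± 0.26 and -2.40. For XTH16 the 4 vascular arrays, from 5.62 to 6.02, lay beside the p35S arrays at 5.55 and 5.91.

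**Figure D5:**
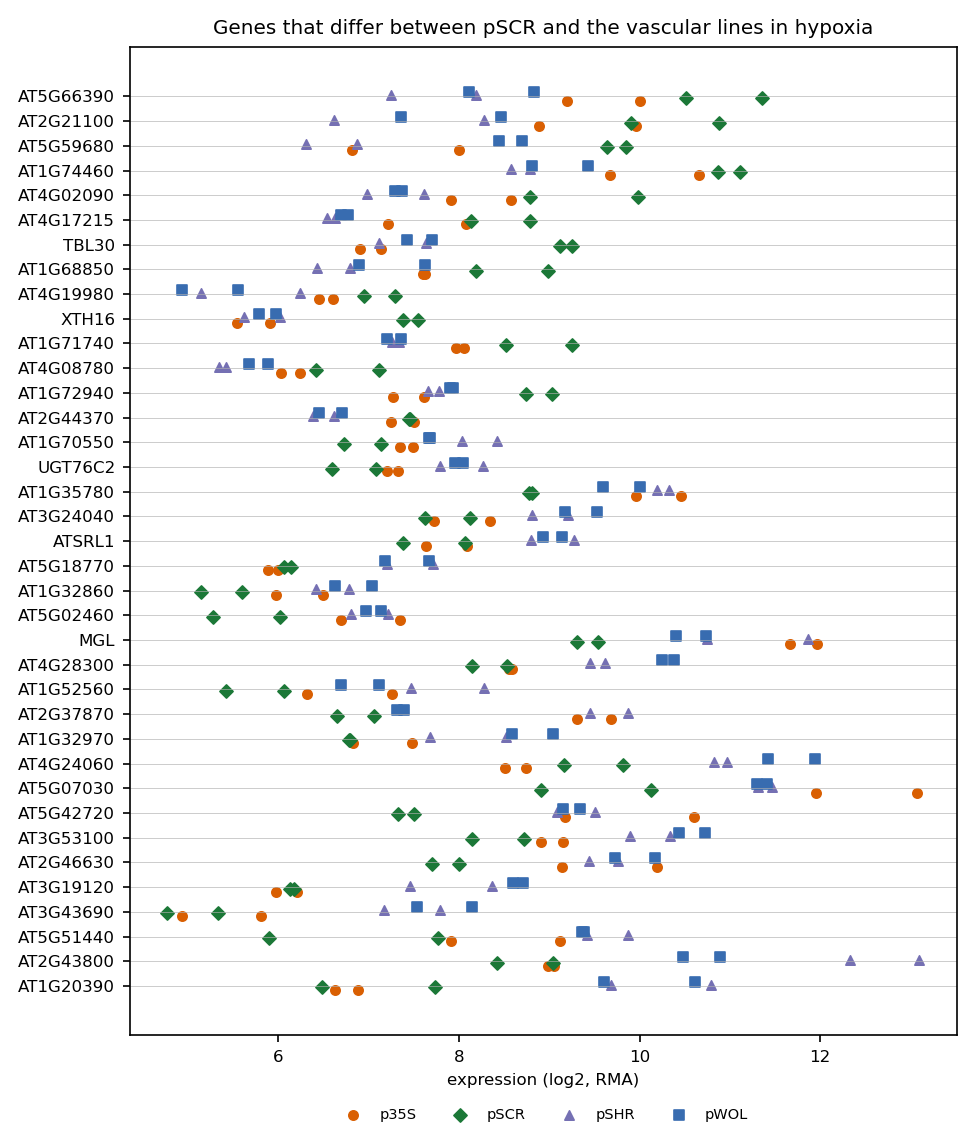
Level (log2) on each hypoxia array of the 37 single-gene probe sets that differed between pSCR and the mean of pSHR and pWOL, ordered by that difference, with p35S for reference. AT5G66390 is PER72 (difference 2.84), and AT1G20390 has the lowest value (-3.07).

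Lower in pSCR than in the vascular lines were, among others, a formin gene and 2 DOF transcription factor genes. AT2G43800, a formin that nucleates actin, read 8.43 and 9.05 in pSCR, 12.33 and 13.10 in pSHR and 10.48 and 10.89 in pWOL, a difference of -2.96 ± 0.32 (adjusted p = 0.00686). This call held without each of the 6 arrays in turn. The DOF factor genes AT4G24060 (-1.80 ± 0.31) and AT5G02460 (-1.39 ± 0.25) were lower, as was UGT76C2 (-1.18 ± 0.21), which glucosylates cytokinins. The small heat shock protein genes AT5G51440 (-2.68 ± 0.49) and AT1G52560 (-1.65 ± 0.27) were lower too. AT5G51440 read 7.77 and 5.90 in pSCR and 9.36 to 9.88 on the 4 vascular arrays. Against p35S, AT2G43800 differed by -0.29 and AT4G24060 by 0.86, and neither passed.

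Gene length moved with the direction of the calls against p35S. The median gene length in the TAIR10.1 table was 3079 base pairs for the 159 genes higher in pSCR in hypoxia, 1638 for the 374 lower genes and 2105 for all 13286 named genes. In air the medians were 2885 and 1915. Against the vascular lines the order was the other way, 1531 for the 14 higher genes and 2411 for the 23 lower ones. The median level of the lower genes was 8.36 in p35S, 7.45 in total RNA and 6.79 in pSCR, and that of the higher genes 7.32, 8.05 and 8.64. Beside this stands the GAPDH 3 prime minus 5 prime difference, which was higher on both pSCR hypoxia arrays than on both p35S hypoxia arrays. Its part in the calls was not tested.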

How the data were processed

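RNA of root tips was measured on Affymetrix ATH1-type arrays, 1 per sample. Each deposited value is a log2 expression level; RMA and the package affy made it, per the submitters' processing notes, and the chip definition is not given in the sources used here. RMA compresses low values, so differences of weak transcripts are understated. The values were used as deposited. After removal of 64 control probe sets, 22746 were tested. The supplied platform annotation lists 1 gene for 13513, several for 503 and none for 8730; symbols and neighbours came from the RefSeq table of TAIR10.1, which 13436 matched. The values come with no genome build, and no coordinates or sequences are given.

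With limma 3.58.1 in R 4.3.3, the means of 10 groups were estimated from all 20 arrays (10 residual and 3.30 prior degrees of freedom), with Benjamini-Hochberg adjustment over all probe sets within each of 4 comparisons and calls at 0.05. Errors are standard errors of the model. Genes with several probe sets were represented by the brightest. Named genes were the 15 largest single-gene calls per direction without overlap between arrays, all changes of the difference that passed, all measured list members and up to 4 called members per family. For the receptor kinases with a malectin-like domain, all 8 called members were named. The comparison, lists and families were chosen with earlier results of these data known; the peroxidase, receptor kinase, xyloglucan enzyme and tetraspanin groups were chosen after values were seen. The script was tested on simulated data with planted changes and independent normal noise. It recovered 79 of 100 changes of 2 log2 units and 37 of 100 of 1 log2 unit, with 7 false calls. Replicate numbers did not pair arrays (deviations of same-numbered p35S and pSCR hypoxia arrays correlated at 0.12; over all pairs of groups -0.33 to 0.29). Alternatives were a replicate block, the compared arrays alone, no total RNA arrays, no dim probe sets, median centring, quantile normalisation, trended robust moderation, a minimum difference of 1 log2 unit and leaving out each array. The number of arrays limits the precision.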

Additional observations from a re-analysis of the deposited data

Results flagged for a closer look

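For 6 probe sets the difference between pSCR and p35S itself changed between hypoxia and air, by an interaction term in limma with Benjamini-Hochberg adjustment (0.0264% of all tested). The count was 0 without p35S control replicate 1, p35S control replicate 2, p35S hypoxia replicate 2 or pSCR hypoxia replicate 2, 2 when pSCR control replicate 1 was left out, 16 for p35S hypoxia replicate 1 and 33 for pSCR hypoxia replicate 1.

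AT5G23340 changed by 2.04 ± 0.28 (adjusted p = 0.0249), with 8.63 and 8.48 in pSCR against 7.25 and 7.06 in p35S in hypoxia, and 7.21 and 7.30 against 7.80 and 7.99 in air. AT3G54080 changed by 1.74 ± 0.23, since it differed by -1.90 in air and by -0.15 in hypoxia. The probe set 267513_at, without a listed gene, changed by 1.70 ± 0.20, from -1.08 in air to 0.61 in hypoxia, and was called in both.

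AT4G26460 changed by -1.41 ± 0.19. It read 5.16 and 5.46 in p35S in hypoxia, between 3.71 and 4.26 on all other arrays, and 3.94 and 4.08 in pSCR in hypoxia. AT1G36070 changed by -1.83 ± 0.27, from 1.79 in air to -0.04 in hypoxia. The probe set 259429_at, without a listed gene, changed by -1.90 ± 0.26. It read 7.82 and 7.78 in pSCR in air and 5.51 and 5.50 in pSCR in hypoxia.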

How the results depend on the processing

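The count of 1006 in hypoxia was 963 with a replicate block, 727 without total RNA, 1070 without dim probe sets, 1013 with centring or quantile normalisation and 972 with trended moderation. It was 1 with the compared arrays alone and 255 to 576 with an array left out. The air count of 2262 was 1387 with the compared arrays alone and 750 to 1532 with an array left out. The 6 changes between treatments became 0 with the compared arrays alone, without total RNA or without dim probe sets, and 0 to 33 with an array left out. The 54 calls against the vascular lines became 0 with the compared arrays alone or without total RNA, 140 without dim probe sets, 133 with trended robust moderation, and 2 to 564 with an array left out. The cause of these shifts was not tested. The replicate block ended the calls of GSO1 (1.26), AT4G39675 (-1.89) and AT1G51850 in hypoxia, and of AT5G51440 and AT5G07030 against the vascular lines. All 30 leading genes kept their call under the replicate block, centring, quantile normalisation and trended moderation, 24 without total RNA and 0 with the compared arrays alone. Among the 30 leading genes and the genes of the cell type and low-oxygen lists, no call against p35S in hypoxia changed sign under the alternatives run. The 2 arrays per group limit what can be called.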

Other observations

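Further genes called in hypoxia are given as values; they were chosen after their values were seen. STZ, a zinc finger repressor of stress responses, read 7.38 and 6.75 in pSCR and 9.35 and 9.23 in p35S, a difference of -2.22 ± 0.30, against 0.42 in air. The change of that difference was -2.64 (adjusted p = 0.0546). PYE, a bHLH regulator of iron supply, differed by -1.53 ± 0.27 in hypoxia and by 0.26 in air. LBD16, a regulator of lateral root initiation, differed by -1.09 ± 0.25, and CLE41, which encodes a vascular signalling peptide, by -1.49 ± 0.37 (-2.05 in air). MYC1, a bHLH factor of epidermal patterning listed as ATMYC1, was higher by 1.30 ± 0.28.

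Enzymes were found on both sides. MGL read 9.54 and 9.31 in pSCR against 11.97 and 11.67 in p35S (-2.40 ± 0.30). APS3, an ATP sulfurylase, differed by -1.91 ± 0.27 and BCAT4, which starts the chain elongation of methionine for glucosinolates, by -1.57 ± 0.32. Higher in pSCR were OSM34, an osmotin (1.71 ± 0.40), URE, the urease (1.43 ± 0.30), and GPDHC1, a cytosolic glycerol-3-phosphate dehydrogenase (1.14 ± 0.29). AT1G19230, an NADPH oxidase of the respiratory burst family, was higher by 1.56 ± 0.41, and AT4G24140, of the BODYGUARD family of cutin-related hydrolases, by 1.73 ± 0.37. AT5G65380, of the MATE efflux family, read 8.81 and 8.48 against 7.13 and 7.01 (1.58 ± 0.18).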
